A study of Mus musculus with 11 samples.

Results

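The 10 genes described here encode interferon-inducible GTPases of the mouse. They were taken by name from the 2 families known as guanylate-binding proteins (Gbp2, Gbp3, Gbp5, Gbp6 and Gbp7) and immunity-related GTPases (Irgm1, Irgm2, Igtp, Tgtp1 and Tgtp2). All 10 were found among the 17181 gene symbols of the table, and all 10 were among the 13074 genes kept for testing, those that reached an FPKM of 1 in 2 or more libraries. FPKM divides a gene's fragments by its length and by all mapped fragments of the library, so levels can be set side by side between genes.

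RNA came from tumours of 4T1, a mouse line of triple-negative breast cancer with WT listed as its genotype, injected under the skin of both flanks of NSG mice. These hosts are known to lack T, B and NK cells, and no age or sex is used here. Treatment began at a tumour volume of about 100 mm3 and lasted 12 days in all groups. The vehicle group (2 libraries, also titled untreated) received sodium lactate, corn oil and DMSO. The OPG-Fc group (3 libraries) received 10 mg/kg into the peritoneum 3 times a week of OPG-Fc, a soluble decoy receptor that captures the bone-resorption cytokine RANKL. The palbociclib group (3 libraries) received 30 mg/kg by mouth each day of this inhibitor of the cell cycle kinases CDK4 and CDK6, and the combination group (3 libraries) received both agents at these doses. The title of the series calls the model syngeneic. The labels do not say which tumours shared a mouse, and some may, so p-values measure the spread between these libraries. Read depth is not given by the values, which were deposited as FPKM to 2 decimals with totals of 576699 to 864670 per library.

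Interferons induce both families. Interferon gamma acts through the kinases Jak1 and Jak2 on gamma-activated sites (GAS) in DNA, and through Irf1, which binds interferon-stimulated response elements (ISRE). Type I interferons act mainly on the latter elements. Guanylate-binding proteins assemble on membranes of pathogens and of the compartments that hold them and promote inflammasome activation. Among the immunity-related GTPases, Irgm1, Irgm2 and Igtp sit on host membranes and act as regulators that keep the effector GTPases, such as Tgtp1 and Tgtp2, inactive there. In tumours these genes are widely read as a record of interferon exposure, of cancer cells as well as of host cells.

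The DNA just upstream of these genes is shown first, because the letters carry what the members share. RefSeq promoter sequences of the build GRCm38.p6 were available for 9 of the 10 genes, all but Gbp6, while the expression table was made on GRCm39, so these positions are not those of the table's build. The 250 bases before each annotated start were searched on both strands for an ISRE-type element (GAAA, then NN for any pair of bases, then GAAA) and a GAS-type element (TTC, then NNN for any bases, then GAA). The windows below hold the ISRE-type elements, and GAS-type elements where they lie beside them, in capitals, with each sequence read 5′ to 3′ along the strand of the gene.
Gbp2, chr3:142620579-142620638, plus strand: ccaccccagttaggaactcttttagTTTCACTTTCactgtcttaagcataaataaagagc
Gbp3, chr3:142559974-142560039, plus strand: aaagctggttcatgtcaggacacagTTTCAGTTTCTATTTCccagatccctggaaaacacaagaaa
Gbp5, chr3:142496744-142496803, plus strand: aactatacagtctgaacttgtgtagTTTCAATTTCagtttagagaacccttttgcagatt
Gbp7, chr3:142530258-142530317, plus strand: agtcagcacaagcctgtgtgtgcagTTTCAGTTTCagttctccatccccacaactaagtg
Irgm1, chr11:48871421-48871475, minus strand: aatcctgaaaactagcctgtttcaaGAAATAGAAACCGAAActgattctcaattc
Irgm2, chr11:58214888-58214947, plus strand: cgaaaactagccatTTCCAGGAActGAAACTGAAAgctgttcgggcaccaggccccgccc
Igtp, chr11:58199497-58199555, plus strand: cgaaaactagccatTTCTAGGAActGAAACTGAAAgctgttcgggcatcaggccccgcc
Tgtp1, chr11:48992289-48992348, minus strand: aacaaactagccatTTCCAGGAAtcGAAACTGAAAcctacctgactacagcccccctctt
Tgtp2, chr11:49064248-49064307, minus strand: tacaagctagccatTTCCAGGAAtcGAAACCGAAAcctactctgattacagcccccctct

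All 9 genes with a sequence held an ISRE-type element, against 3.46% of the 27025 genes with RefSeq promoters. Gbp3 had 2 promoter entries, 1 of which held the element. A GAS-type element lay in 6 of the 9, against 8.13% of the 27025 genes, and the same 6 held both, against 0.4%. The ISRE-type element read on the reverse strand in the 4 guanylate-binding protein genes and on the forward strand in the 5 immunity-related GTPase genes. In Gbp3 and in Irgm1 a pair of ISRE-type matches overlapped, which gives the longer stretches in capitals. In Irgm2, Igtp, Tgtp1 and Tgtp2 a GAS-type element began 11 bases before the ISRE-type element. This arrangement was found in 5 of the 32851 promoters (0.0152%), and these 4 genes gave 4 of the 5. This spacing was chosen after the sequences had been seen. The windows of Irgm2 and Igtp were identical at 57 of 59 bases (96.6%) and those of Tgtp1 and Tgtp2 at 44 of 60 (73.3%), so these promoters are not independent of each other. In Gbp5 the ISRE-type element began 165 bases before the start, farther than in the other 8 genes, where the first match began 30 to 77 bases before, and its 2 GAS-type elements lay outside the window shown. Of the other genes of both families, 6 had a promoter sequence, 2 of these (Gbp2b and Gm12250) held an ISRE-type element and 1 (Gm12250) a GAS-type element. A match is a run of letters and was not tested for binding.

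**Figure D1:**
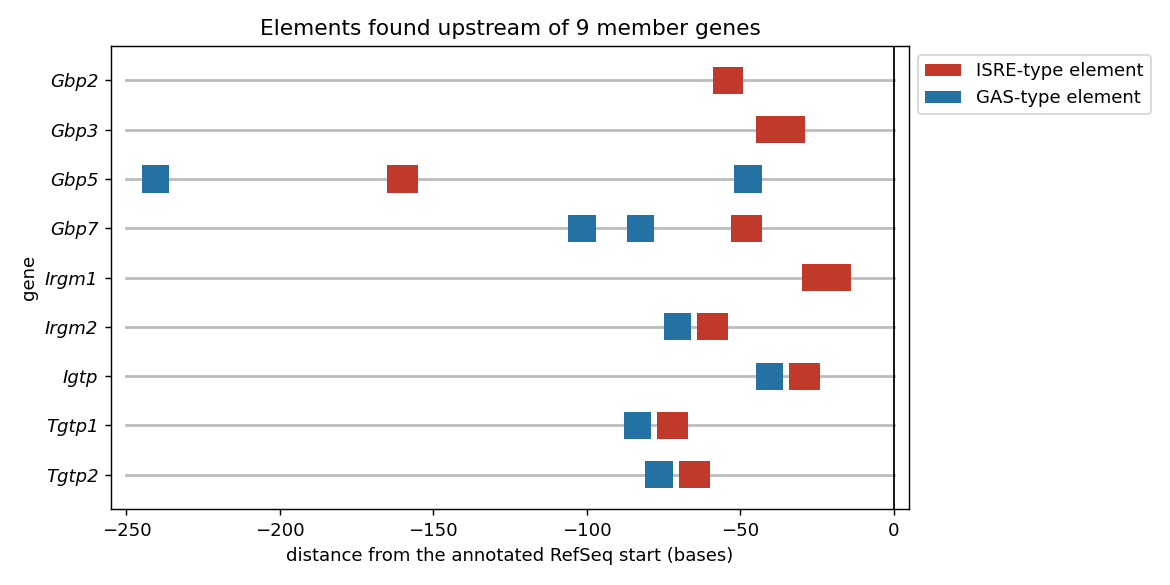
Positions of ISRE-type (red) and GAS-type (blue) elements in the 250 bases before the annotated RefSeq start of 9 of the genes; the x axis is the distance from the start in bases and each row is 1 gene. A blue element stands directly before a red one in Irgm2, Igtp, Tgtp1 and Tgtp2, and the red element of Gbp5 lies farthest from the start, at 165 bases.

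The 11 libraries did not all match their labels of epithelial tumour tissue, or of hosts known to lack T, B and NK cells. In vehicle replicate 2 the 8 epithelial markers summed to an FPKM of 55.6, against 2809 in vehicle replicate 1 and 2416 to 3579 in the 9 treated libraries. The 11 T and NK cell markers summed to 842 there and to 24.4 to 185 in the other 10 libraries, and the 7 B and plasma cell markers to 6702 against 0.57 to 766, the highest of these in OPG-Fc replicate 2. Skin markers summed to 1164 and 1004 in palbociclib replicates 1 and 3, against 4.13 to 248 in the other 9 libraries. Every comparison with vehicle is therefore given both ways, with vehicle replicate 2 in the fit and with it left out. The second form leaves a single vehicle library, whose spread is borrowed from the remaining groups. The part of these cell types in the results below was not tested. In bulk tissue, fewer cells of a type and less RNA per cell cannot be told apart.

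The genes were expressed in every library, at levels between an FPKM of 5.91 and 218. Gbp2 had the highest median level of the 5 guanylate-binding protein genes and is known to coat parasite-containing vacuoles. Its FPKM was 134 and 26.7 with vehicle, 76.2, 131 and 143 with OPG-Fc, 179.8, 191 and 117 with palbociclib, and 160.2, 135 and 116 with the combination. The groups overlapped, and vehicle replicate 2 was the lowest of all libraries, 5.04 times below vehicle replicate 1. Gbp3, a close relative, had an FPKM of 68.6 and 26.0 with vehicle, 29.9, 49.9 and 52.3 with OPG-Fc, 55.1, 68.8 and 46.6 with palbociclib, and 53.1, 47.25 and 41.6 with the combination. Gbp6 had an FPKM of 42.1 and 15.1 with vehicle, 17.2, 31.8 and 37.8 with OPG-Fc, 46.3, 39.35 and 27.9 with palbociclib, and 29.5, 22.9 and 23.6 with the combination. In both genes vehicle replicate 2 was again the lowest library and OPG-Fc replicate 1 the next. Of the 100-base windows of the Gbp6 transcript in GENCODE M21, 82.9% also lie in the predicted gene Gm43302, so its level may include fragments of that copy.

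Gbp5, which promotes assembly of the NLRP3 inflammasome, had the lowest level of the 10 and a different order. Its FPKM was 10.9 and 17.0 with vehicle, 6.94, 11.03 and 10.7 with OPG-Fc, 7.68, 7.22 and 6.31 with palbociclib, and 8.61, 6.47 and 5.91 with the combination. The group means were 13.96 ± 4.28 (SD, n = 2) with vehicle, 9.54 ± 2.26 (SD, n = 3) with OPG-Fc, 7.07 ± 0.697 (SD, n = 3) with palbociclib and 6.997 ± 1.43 (SD, n = 3) with the combination. Gbp5 was the 1 gene of the 10 that was highest in vehicle replicate 2, and the ratio of vehicle replicate 1 to vehicle replicate 2 was 0.644, against 1.73 to 5.04 for the other 9. Gbp7, which has been linked to the phagocyte oxidase, had an FPKM of 31.8 and 18.3 with vehicle, 19.25, 21.6 and 25.9 with OPG-Fc, 22.4, 21.02 and 19.85 with palbociclib, and 21.3, 19.1 and 10.8 with the combination. Its palbociclib libraries lay within 1.13 times of each other, the closest of the 10 genes in that group, and combination replicate 3 was the lowest library.

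The 3 regulators were lower in vehicle replicate 2 than in vehicle replicate 1, as were the other members except Gbp5. Irgm1, which is needed for normal handling of mycobacteria and for macrophage autophagy, had an FPKM of 195 and 69.2 with vehicle, 86.2, 146 and 143 with OPG-Fc, 179.65, 165 and 111 with palbociclib, and 149, 126 and 145 with the combination. Irgm2 had an FPKM of 99.99 and 26.9 with vehicle, 38.3, 69.0 and 69.8 with OPG-Fc, 94.6, 64.2 and 49.96 with palbociclib, and 56.7, 41.45 and 48.1 with the combination. Igtp, also called Irgm3, had an FPKM of 179 and 71.6 with vehicle, 71.1, 171 and 169 with OPG-Fc, 218, 171 and 104 with palbociclib, and 142, 95.1 and 176 with the combination. The groups overlapped in each of these genes. Igtp had the widest spread within the OPG-Fc and palbociclib groups, where its highest library was 2.41 and 2.10 times its lowest.

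Tgtp1 and Tgtp2, effectors that load onto pathogen-containing vacuoles, are near copies of each other. Of the 100-base windows of the Tgtp1 transcript, 80.0% also lie in Tgtp2, and 80.4% of those of Tgtp2 lie in Tgtp1, so how the authors' estimate split fragments between them is uncertain. Tgtp1 had an FPKM of 113 and 31.8 with vehicle, 52.7, 87.8 and 88.2 with OPG-Fc, 109, 82.5 and 68.3 with palbociclib, and 80.3, 81.15 and 85.6 with the combination. Tgtp2 had an FPKM of 96.2 and 50.04 with vehicle, 49.5, 95.2 and 90.4 with OPG-Fc, 97.9, 83.4 and 57.5 with palbociclib, and 80.7, 81.3 and 81.5 with the combination. The 3 combination libraries lay within 1.01 times of each other for Tgtp2, the closest of any gene in that group, while those of Gbp7 differed by 1.98 times.

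**Figure D2:**
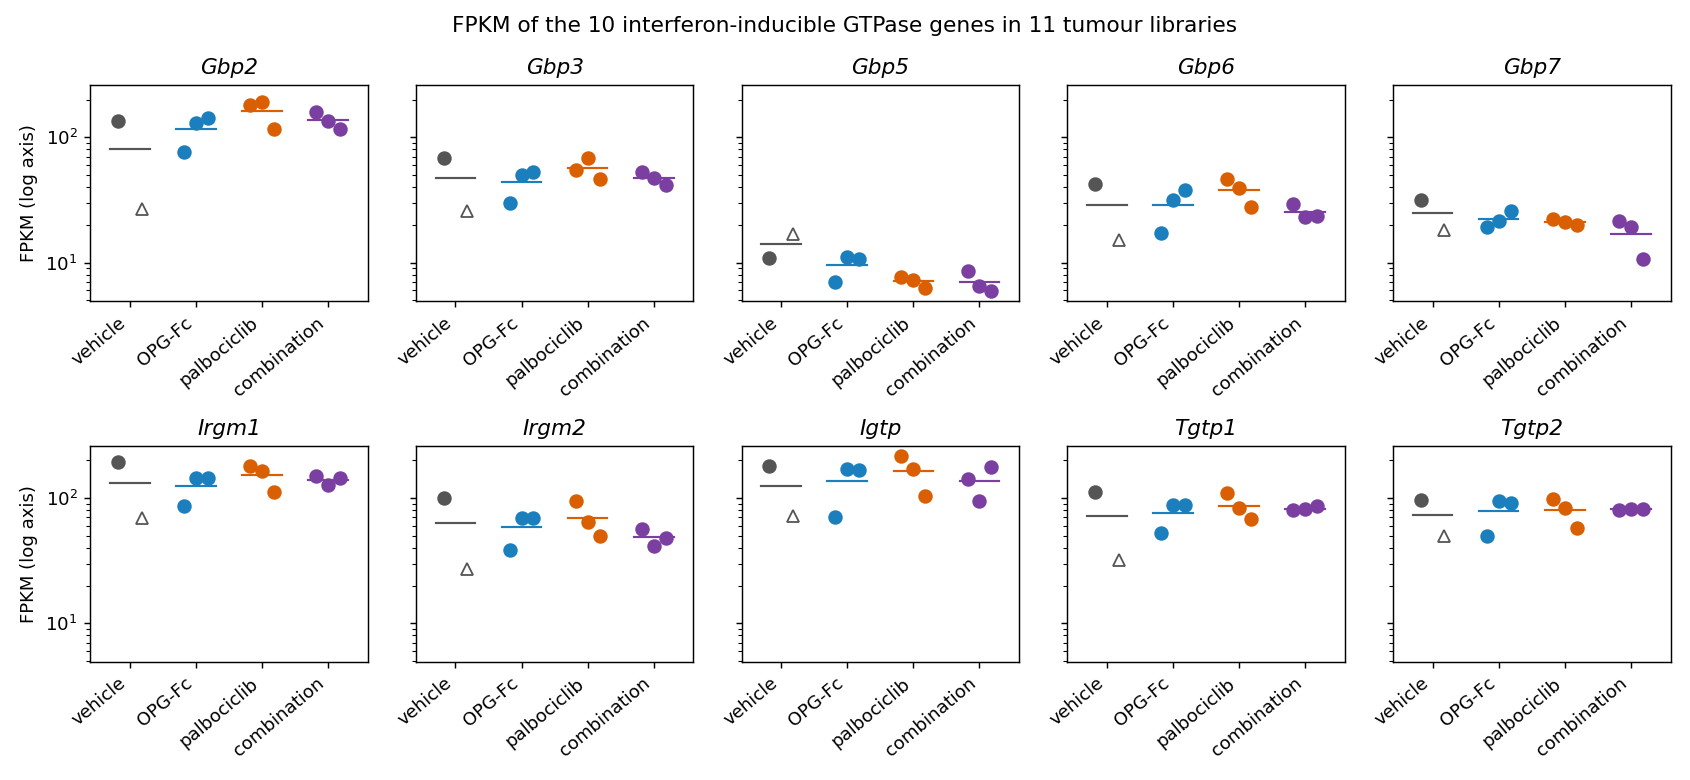
FPKM of each gene on a log axis, 1 panel per gene, with 1 point per library, colours for the 4 groups, horizontal lines for group means and an open triangle for vehicle replicate 2. The open triangle lies far below the other vehicle point in 9 panels and above it for Gbp5, and the treated groups overlap in all 10 panels.

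Across the 10 genes, libraries of 1 treated group lay farther apart than the means of the treated groups. The mean log2(FPKM + 1) of the 10 genes was 6.24 and 4.98 with vehicle, 5.21, 5.97 and 6.02 with OPG-Fc, 6.18, 6.02 and 5.57 with palbociclib, and 5.87, 5.62 and 5.63 with the combination. The group means of this level were 5.61 ± 0.89 (SD, n = 2) with vehicle, 5.73 ± 0.46 (SD, n = 3) with OPG-Fc, 5.92 ± 0.31 (SD, n = 3) with palbociclib and 5.71 ± 0.14 (SD, n = 3) with the combination. OPG-Fc replicate 1 was the lowest library of its group for all 10 genes, and palbociclib replicate 3 the lowest of its group for all 10. In the combination group no library held that place, with 2, 4 and 4 genes lowest in replicates 1, 2 and 3. OPG-Fc replicates 2 and 3 share the first number in their column names, as do combination replicates 1 and 2. The labels do not say whether the tumours of such a pair came from the same mouse. The 3 libraries of these groups may therefore not be independent, and the spread within them may be understated. Over the 10 libraries without vehicle replicate 2, OPG-Fc replicate 1 was lowest for 8 genes and combination replicate 3 for Gbp5 and Gbp7. By group mean FPKM, palbociclib ranked first for 7 genes, vehicle for Gbp5 and Gbp7 and the combination for Tgtp2. Without vehicle replicate 2, vehicle ranked first for 9 genes and palbociclib for Gbp2. Neighbouring groups in these orders overlapped for every gene when all 11 libraries were used, so no order of conditions stood out from the spread.

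Palbociclib was set against vehicle to see the genes under CDK4 and CDK6 inhibition. With all 11 libraries, 0 of the 10 genes passed an adjusted p of 0.05 by limma, as did 0 of all 13074 genes (0%). An unadjusted p under 0.05 was reached by 2 of the 10, against 28.1% of all genes. The median log2 fold change of the 10 genes was 0.38, beside -0.04 over all genes tested. Gbp2 was at 1.39 ± 0.56 (SE, limma adjusted p = 0.165) and Gbp5 at -0.86 ± 0.25 (SE, limma adjusted p = 0.158). In the fit without vehicle replicate 2 the median was -0.34, Gbp2 was at 0.24 ± 0.37 and Gbp5 at -0.57 ± 0.27. By limma 0 genes passed there, among the 10 and among all genes, and 0 of the 10 had an unadjusted p under 0.05, against 9.68% of all genes. In FPKM, Gbp5 was lower in each palbociclib library than in both vehicle libraries, as were 20.2% of all genes, and 0 of the 10 were higher in each palbociclib library, against 16.4% of all genes. Against vehicle replicate 2 alone, without vehicle replicate 1, Gbp2 was at 2.53. The 2 vehicle libraries thus gave medians of opposite sign, 1.11 against vehicle replicate 2 and -0.34 against vehicle replicate 1.

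OPG-Fc was set against vehicle to see the genes when RANKL was captured. With all 11 libraries 0 of the 10 genes passed by limma, as did 0 of all genes (0%), and 0 of the 10 had an unadjusted p under 0.05 against 10.2% of all genes. The median was 0.11, beside 0.04 over all genes, with Gbp5 at -0.50 ± 0.25 (SE, limma adjusted p = 0.471) and Gbp2 at 0.89 ± 0.56 (SE, limma adjusted p = 0.497). When vehicle replicate 2 was left out all 10 genes were on the lower side, with a median of -0.55 and values from -0.80 for Irgm2 to -0.20 for Gbp5, and 0 of the 10 passed (smallest limma adjusted p = 0.425; 0.00765% of all genes were called). Gbp2 changed sign there, to -0.26 ± 0.37. No gene of the 10 separated the groups in FPKM, against 12.7% of all genes on the higher and 8.57% on the lower side. Without vehicle replicate 1 the median was 0.81.

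The combination was set against vehicle in the same way, and 0 of the 10 genes passed by limma, as did 0 of all genes (0%). An unadjusted p under 0.05 was reached by 1 of the 10, against 29.6% of all genes. Gbp5 was at -0.89 ± 0.25 (SE, limma adjusted p = 0.0798) and Gbp2 at 1.16 ± 0.56 (SE, limma adjusted p = 0.191). The median of the 10 was 0.19, beside -0.01 over all genes. With vehicle replicate 2 left out the median was -0.51 and 0 of the 10 passed, against 0.0612% of all genes, while 2 of the 10 had an unadjusted p under 0.05, against 23.1% of all genes. These 2 were Irgm2, at -1.03 ± 0.39, and Gbp7, at -0.91 ± 0.31 (SE), the lowest values among the 10 (limma adjusted p = 0.166 and 0.143). In FPKM Gbp5 was lower in each combination library than in both vehicle libraries, as were 17.8% of all genes, and 0 of the 10 were higher, against 18% of all genes. Without vehicle replicate 1 the median was 0.83. These 3 comparisons share the vehicle libraries.

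**Figure D3:**
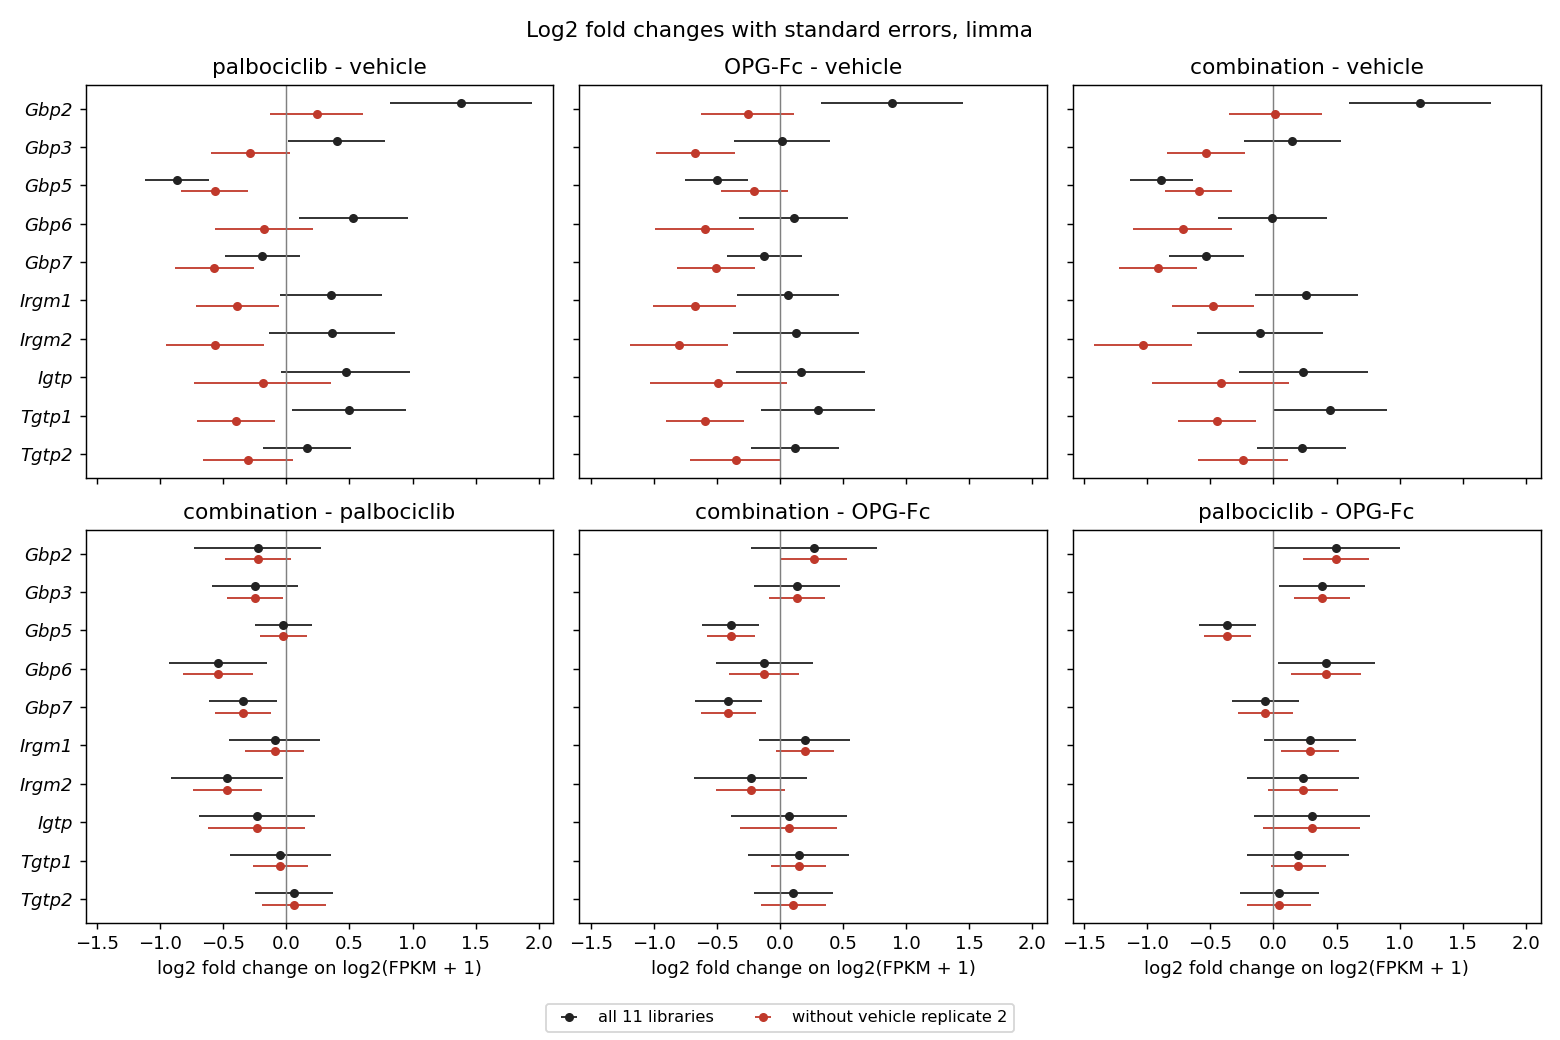
Log2 fold changes of the 10 genes in 6 comparisons, with bars of 1 standard error on either side from limma, using all 11 libraries (black) or leaving out vehicle replicate 2 (red). In the 3 comparisons with vehicle the red points lie below the black ones for 9 genes and above them for Gbp5; in the other 3 comparisons the points coincide and only the errors differ.

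The comparisons among the treated groups do not use the vehicle libraries except for the shared estimate of spread. Adding OPG-Fc to palbociclib left 9 of the 10 genes on the lower side, with a median log2 difference of -0.23 beside 0.02 over all genes. Of the 10, 0 passed by limma and 0 had an unadjusted p under 0.05, against 0% and 6.75% of all genes. Gbp6 was at -0.54 ± 0.39 (SE, limma adjusted p = 0.772) with a 95% interval of -1.41 to 0.33, and Gbp7 at -0.34 ± 0.27 (SE, limma adjusted p = 0.787) with an interval of -0.94 to 0.26. Tgtp2 was at 0.06, with an interval of -0.64 to 0.76. The intervals of all 10 genes included 0, and they differed in width, from -0.53 to 0.48 for Gbp5 to -1.35 to 0.90 for Gbp2. The median was -0.07 without palbociclib replicate 1 and -0.38 without palbociclib replicate 3, and Gbp7 was at -0.06 without combination replicate 3. The groups overlapped for all 10 genes, against 13.7% of all genes lying higher and 7.04% lower in each combination library.

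Adding palbociclib to OPG-Fc gave a median of 0.09, beside -0.07 over all genes. By limma 0 of the 10 passed, against 0.0994% of all genes, and 0 had an unadjusted p under 0.05, against 15.5%. Gbp5 was at -0.39 ± 0.23 (SE, limma adjusted p = 0.417; 95% interval -0.89 to 0.12) and Gbp7 at -0.41 ± 0.27 (SE, limma adjusted p = 0.474; 95% interval -1.01 to 0.19). All 10 overlapped, against 15.3% of all genes higher and 23.5% lower. Without vehicle replicate 2, 4.7% of all genes were called and 0 of the 10, the smallest adjusted p by limma being 0.187, and 0 of the 10 had an unadjusted p under 0.05, against 31.3%. With sample weights Gbp5 passed (-0.41, limma adjusted p = 0.0427), as did 3490 of all genes. The median changed sign with single libraries, from -0.27 without OPG-Fc replicate 1 to 0.26 without OPG-Fc replicate 2.

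Palbociclib against OPG-Fc gave a median of 0.26, beside -0.04 over all genes, with 8 of the 10 on the higher side. By limma 0 of the 10 passed, against 0.91% of all genes, and 0 had an unadjusted p under 0.05, against 12.3%. Gbp5 was at -0.37 ± 0.23 (SE, limma adjusted p = 0.645; 95% interval -0.87 to 0.14) and Gbp3 at 0.39 ± 0.34 (SE, limma adjusted p = 0.800; 95% interval -0.38 to 1.15). All 10 overlapped, against 11.3% of all genes higher and 21.8% lower. In the fit without vehicle replicate 2, 10.3% of all genes were called and 0 of the 10, with a smallest adjusted p by limma of 0.278, and 0 of the 10 had an unadjusted p under 0.05, against 24.1%. With sample weights Gbp5 passed (-0.53, limma adjusted p = 0.0198), as did 2652 of all genes. Without OPG-Fc replicate 1, the library that was lowest in its group for all 10 genes, the median was -0.05. The difference between the palbociclib effect with and without OPG-Fc was also tested as an interaction, and 0 of the 10 passed with all 11 libraries (limma adjusted p = 0.647 to 0.967) or without vehicle replicate 2 (limma adjusted p = 0.952 to 0.998).

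The 10 genes varied together from tumour to tumour. Over the 45 pairs of genes the median Pearson correlation of log2(FPKM + 1) was 0.83 over 11 libraries, 0.75 over the 10 without vehicle replicate 2, and 0.87 over the 9 treated libraries after the group means had been subtracted. The last value does not rest on differences between group means or on vehicle, and 33 of the 45 pairs were above 0.7 there. The share of all gene pairs above that level was not computed. OPG-Fc replicate 1 and palbociclib replicate 3, lowest in their groups for all 10 genes, enter every pair. The pairs share libraries, tissue makeup and scaling, and the correlations are descriptions. Irgm1 was the most central gene, with a median correlation with the other 9 of 0.92 over 11 libraries and 0.93 among the treated deviations. The highest pair among the deviations was Tgtp1 with Tgtp2, at 0.97, whose transcripts share sequence. Next to the top stood Gbp2 with Gbp3, at 0.96, and Irgm1 with Tgtp2, at 0.97, which share little or none.

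Gbp5 and Gbp7 stood outside this pattern, each in its own way. The median correlation of Gbp5 with the other 9 genes was -0.12 over 11 libraries, 0.48 without vehicle replicate 2 and 0.81 among the treated deviations, so its place among the 10 differed between the sets. Within treated groups Gbp5 followed Gbp2 at 0.90, although the pair had a correlation of -0.57 over 11 libraries. Gbp7 had medians of 0.35, 0.36 and 0.37 in the 3 sets and 0.03 with Igtp among the deviations. Combination replicate 3, where Gbp7 was lowest at 10.8 and Igtp was the highest of its group at 176, is 1 library in which they went opposite ways.

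**Figure D4:**
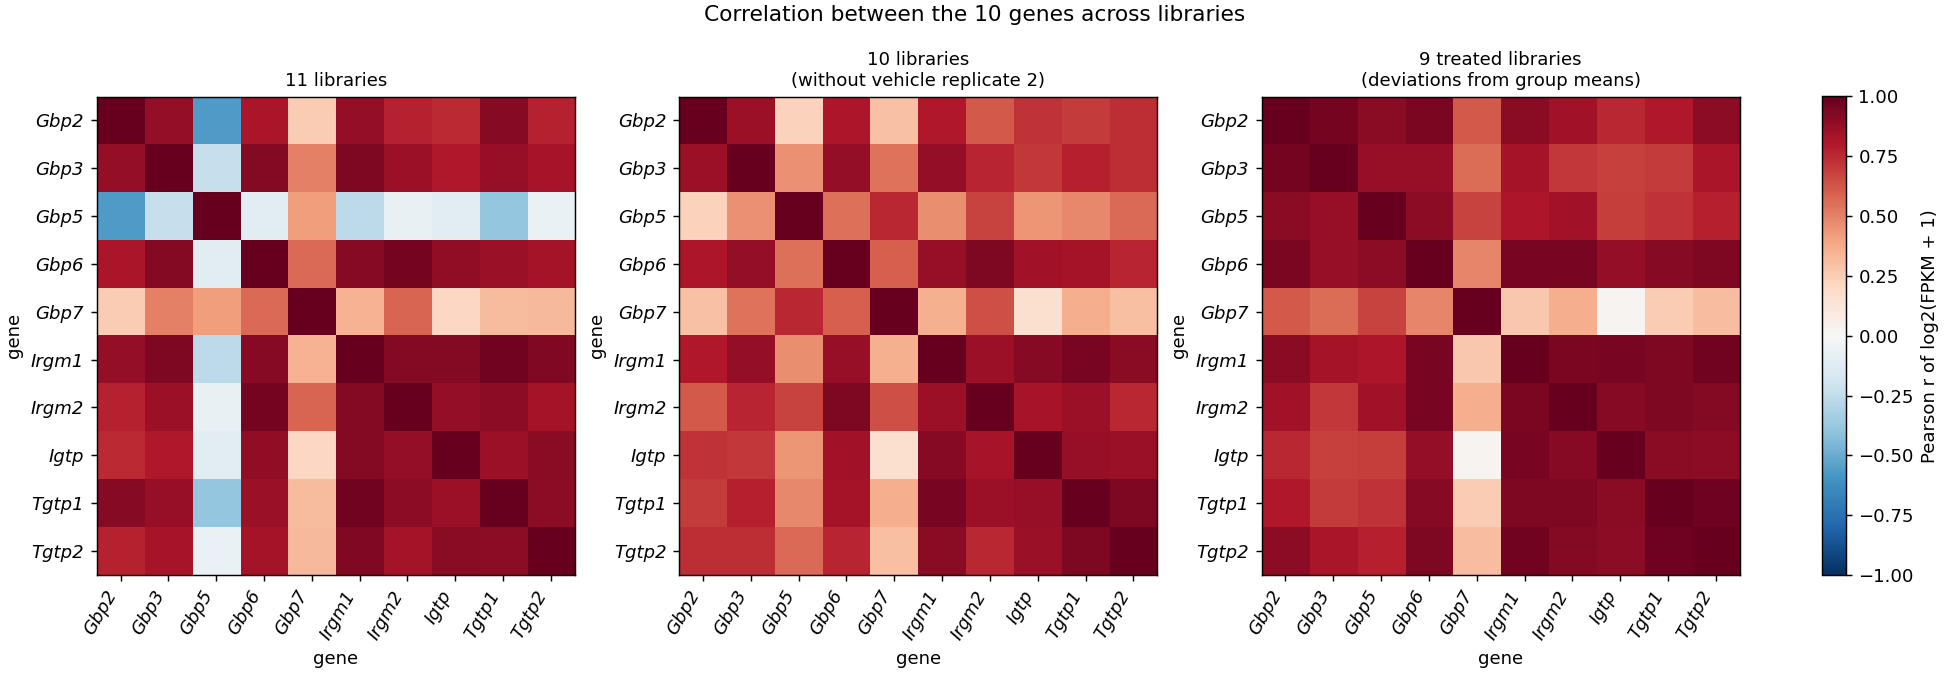
Pearson correlation of log2(FPKM + 1) between each pair of the 10 genes, from -1 (blue) to 1 (red), over 11 libraries, over 10 libraries without vehicle replicate 2, and over the deviations of the 9 treated libraries from their group means. The row of Gbp5 turns from blue to red across the panels, while that of Gbp7 stays pale.

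The genes outside the set most like the mean of the 10 included several of the same families, with likeness measured as the Pearson correlation of log2(FPKM + 1). Over 11 libraries they were Gm12250, an immunity-related GTPase gene, at a correlation of 0.96, Gbp4 at 0.94, Gbp10 at 0.94, Gm12185 at 0.92 and Iigp1 at 0.92. Without vehicle replicate 2 they included Gbp4 at 0.96, Gm12250 at 0.95, Ifng at 0.93 and Gbp10 at 0.92. Ifng encodes interferon gamma itself, and its FPKM was low throughout, at 2.53 and 1.38 with vehicle, 0.59, 1.98 and 1.92 with OPG-Fc, 2.31, 1.83 and 0.99 with palbociclib, and 1.92, 1.04 and 1.86 with the combination. OPG-Fc replicate 1 and palbociclib replicate 3, the libraries lowest in their groups for all 10 GTPase genes, were also the lowest in their groups for Ifng.

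Vehicle replicate 2 did not follow this order. Its Ifng, at 1.38, was above that of 3 treated libraries, while the 10 GTPase genes were at their lowest mean there. Over all 11 libraries the correlation of the mean with Ifng was 0.78, against 0.93 without that library. With the type I interferon targets Isg15 and Oasl2 the correlation was 0.68 and 0.81 over 11 libraries and 0.39 and 0.75 over 10. With the interferon gamma target Cxcl9 it was 0.46 and 0.64, and with Irf1 0.87 and 0.77. With Epcam, an epithelial gene, it was 0.70 and 0.50, with Cd3g, a T cell gene, -0.27 and 0.58, and with Csf1r, a macrophage gene, -0.53 and -0.27. The part of cell makeup in the level of the 10 genes was not tested.

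**Figure D5:**
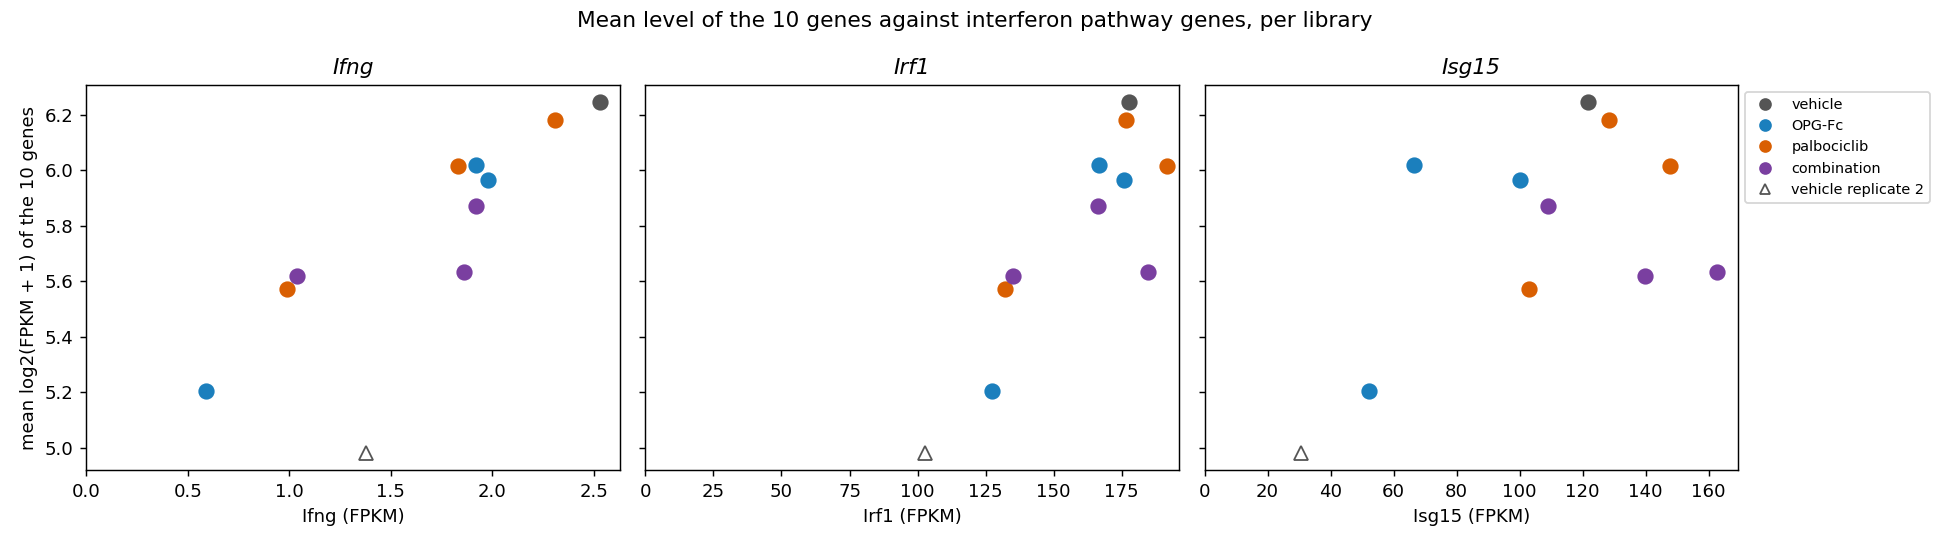
Mean log2(FPKM + 1) of the 10 genes (y axis) against the FPKM of Ifng, Irf1 and Isg15 (x axes), 1 point per library coloured by group, with an open triangle for vehicle replicate 2. The 10 other libraries run from OPG-Fc replicate 1, at 5.21, to vehicle replicate 1, at 6.24, with Ifng, and in that panel the open triangle, at 4.98, lies to the side.

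The rest of the interferon pathway is given for the contrast of palbociclib with OPG-Fc, in which 119 genes of the table were called with all 11 libraries, more than in the other 5 comparisons of that fit, and for the combination against palbociclib. Of the other genes of the GTPase families, 13 of 20 listed were tested and 0 were called in any of the 6 comparisons with all 11 libraries or without vehicle replicate 2. Their median was 0.14 for palbociclib against OPG-Fc, with 11 of 13 positive, and -0.42 for the combination against palbociclib, with 1 of 13 positive. In the second contrast Gbp9 was at -0.56 ± 0.24, Gbp10 at -0.78 ± 0.49 and Gbp4 at -0.63 ± 0.45 (SE, limma adjusted p = 0.730, 0.746 and 0.772), beside the -0.54 of Gbp6. Among the members 9 of 10 were on the lower side in that contrast.

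Of the 12 genes of interferon gamma signalling, from the cytokine and its receptor to Irf1, 0 were called with all 11 libraries in any comparison. Their median was 0.03 for palbociclib against OPG-Fc. Ifngr1, a receptor chain, was at -0.41 there (SE 0.19, limma adjusted p = 0.462). No vehicle library enters this value, so leaving out vehicle replicate 2 could not change it. In that fit Ifngr1 had a smaller error (SE 0.10) and passed the limma threshold. Its FPKM was 53.3, 50.05 and 50.2 with OPG-Fc and 36.6, 39.1 and 39.6 with palbociclib. Of 15 other interferon gamma targets, such as the chemokine genes Cxcl9 and Cxcl10 and the antigen-processing gene Psmb8, 0 were called in any comparison in either fit. Their median was 0.05 for palbociclib against OPG-Fc, with Cxcl9 at 0.77 ± 0.31 and Cxcl10 at 0.47 ± 0.24 (SE, limma adjusted p = 0.324 and 0.501).

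Type I interferon targets gave larger values in that contrast. Their median log2 difference of palbociclib from OPG-Fc was 0.71, with 21 of 21 on the higher side, beside 0.26 for the 10 GTPase genes and -0.04 over all genes. With all 11 libraries 0 of the 21 were called by limma, and 5 had an unadjusted p under 0.05, against 12.3% of all genes. No vehicle library enters this median, so leaving out vehicle replicate 2 could not change it. The errors did change, and in that fit a larger share of the 21 than of all genes passed by limma, all on the higher side. Over all genes this contrast had 0 calls without OPG-Fc replicate 1 or without OPG-Fc replicate 2, and 1 without OPG-Fc replicate 3. Ifit3b, of a family that binds viral RNA, had an FPKM of 2.95, 5.95 and 3.43 with OPG-Fc and 12.0, 9.21 and 8.52 with palbociclib. The difference was 1.13 ± 0.38 (SE, limma adjusted p = 0.231). Oas3, an antiviral oligoadenylate synthetase, had an FPKM of 4.09, 6.93 and 5.73 with OPG-Fc and 13.6, 8.98 and 10.2 with palbociclib. The difference was 0.86 ± 0.32 (SE, limma adjusted p = 0.280). Of 10 type I signalling genes 0 were called in any comparison in either fit, and Irf7, which amplifies type I interferon production, was at 0.93 ± 0.28 (SE, limma adjusted p = 0.166). The palbociclib and OPG-Fc libraries did not overlap for Ifit3b and Oas3, as for 11.3% of all genes on the higher side. These 2 genes were picked from the 21 by their small p in this contrast, so they are not set against the 10 GTPase genes. In the same contrast the summed FPKM of fibroblast markers was 1904 to 2743 with OPG-Fc against 598 to 774 with palbociclib, that of adipocyte markers 795 to 2503 against 63.8 to 104.5, that of endothelial markers 170 to 204 against 82.7 to 101, and that of epithelial markers 2416 to 2546 against 3165 to 3579. The part of these cell types was not tested. Without palbociclib replicates 1 and 3, the libraries high in skin markers, 0 of all genes were called in this contrast, and 1 palbociclib library remained. Whether the targets and the GTPase genes differ in their response was not tested.

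Proteins that work with the GTPases, among them autophagy and inflammasome genes, gave 0 calls of 18 in any comparison in either fit. For the combination against palbociclib Arhgdia was at 0.40 ± 0.15, Casp4, the inflammatory caspase activated by bacterial lipopolysaccharide, at 0.44 ± 0.19, and Gabarap, of the Atg8 family, at 0.41 ± 0.18 (SE, all with a limma adjusted p of 0.730). The 11 macrophage markers summed to 3515 to 4359 FPKM under OPG-Fc, 1075 to 1412 in those of palbociclib and 1911 to 4336 in the combination group, with all of them detected in each library. The level of the 10 genes did not follow that order, and the part of macrophages in it was not tested.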

How the data were processed

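Poly(A) RNA of 11 tumours was sequenced, and the authors deposited 1 table of FPKM values per gene symbol and library. The submitters' processing notes name HISAT, Bowtie2 and RSEM and the builds GRCm39 and mm39, without versions or roles. Raw counts were not used here, and low FPKM values did not give whole reads, so depth is unknown and no counting interval is given. Replicates were the libraries that the labels place in 1 treatment group, and replicate numbers did not pair the samples.

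Values were tested as log2(FPKM + 1) for the 13074 genes that reached 1 FPKM in 2 or more libraries, in a fit over all groups with limma 3.58.1 (trended empirical Bayes, R 4.3.3). The 6 contrasts and an interaction were adjusted by Benjamini-Hochberg over all genes tested, with a threshold of 0.05. Fold changes on this scale understate those of low genes. A second fit left out vehicle replicate 2. Fold changes were given for the 2 members with the smallest p in each comparison, where fewer than 2 passed, and for up to 3 genes of each further list, and the 5 genes most like the members' mean were found. 1 gene that this rule names is not reported here. The members and lists were chosen with earlier results of these data known. The fit was tested on simulated data with known changes in palbociclib against OPG-Fc. It called 49 of 100 genes with a log2 change of 1, 88 of 100 with a change of 2, and 8 of 12874 unchanged genes. Alternatives were other pseudocounts, filters, scalings and models, a replicate block, sample weights and left-out libraries. Promoter sequences came from RefSeq on GRCm38.p6, and shared transcript sequence from GENCODE M21. Figures used matplotlib 3.10.9 with Python 3.11.15.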

Additional observations from a re-analysis of the deposited data

How the results depend on the processing

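Which vehicle library was used decided the comparisons with vehicle. Leaving out 1 library at a time gave 0 to 7 of the 10 genes called for palbociclib against vehicle, 0 to 3 for OPG-Fc and 0 to 5 for the combination, the highest in each case without vehicle replicate 1, where 6802, 5272 and 6640 of all genes were called. The medians ranged from -0.345 to 1.108, -0.55 to 0.812 and -0.507 to 0.828, with the lowest without vehicle replicate 2, and Gbp2 in OPG-Fc against vehicle from -0.256 to 2.034. Among the treated groups 0 genes of the 10 were called in any of these runs, and medians ranged from -0.383 to -0.068 (combination against palbociclib), -0.268 to 0.257 (combination against OPG-Fc) and -0.047 to 0.471 (palbociclib against OPG-Fc). Without both lymphoid libraries (vehicle replicate 2 and OPG-Fc replicate 2) the medians against vehicle were -0.345 for palbociclib, -0.701 for OPG-Fc and -0.507 for the combination, and Gbp2 in OPG-Fc against vehicle was -0.363. With sample weights, limma called 1 of the 10, Gbp5, in the combination against OPG-Fc (-0.41, adjusted p = 0.0427) and in palbociclib against OPG-Fc (-0.53, adjusted p = 0.0198), where 3490 and 2652 of all genes were called. The cause was not tested. With the replicate number as a block 0 of the 10 were called in all 6 comparisons, and 14 of all genes in palbociclib against OPG-Fc. Same-numbered libraries had correlated deviations over 0.1 in 5 of 15 pairs (-0.406 to 0.528). Differently numbered libraries had them in 10 of 30 pairs (-0.528 to 0.434), so the numbers were not taken to pair tumours. Under quantile scaling the combination against OPG-Fc had a median of -0.063, against 0.089. Counts over all genes were less stable: for the combination against OPG-Fc 13 with all libraries, 615 without vehicle replicate 2, 160 with only the groups compared and 0 with quantile scaling or the block, and for palbociclib against OPG-Fc 119, 1344, 1414 and, with quantile scaling, 50. The last comparison had 0 calls without OPG-Fc replicate 1, without OPG-Fc replicate 2 or without both skin-rich libraries, and 1 when OPG-Fc replicate 3 was dropped. Dropping palbociclib replicates 1, 2 and 3 in turn gave 8, 263 and 1. Averaging libraries that share the first number in their column names, an alternative chosen after seeing the data, called 0 of all genes in palbociclib against OPG-Fc. Depth is unknown, so its limits could not be given.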
